A study of Mus musculus with 4 samples.

Results

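Enteroendocrine cells of the mouse colon were examined in droplet single-cell RNA sequencing of 2 control libraries and 2 libraries of mice given carbon tetrachloride (CCl4). CCl4 is a liver toxin that is used to scar the liver in rodents. Per the labels, dosing began in pathogen-free mice at 6 weeks of age and ran for 6 weeks. The control libraries carry the word control alone, with no age, vehicle or duration, and no strain, sex or number of animals is given for any library. The members were chosen by measured counts: barcodes with at least 200 genes, at most 25% mitochondrial counts, at least 3 of the 10 genes Chga, Chgb, Neurod1, Gcg, Pyy, Insl5, Cck, Tph1, Scgn and Fev, at least 5 counts of these in sum, and no count of Ptprc, Col1a1 or Pecam1. This rule found 160 members among 38852 kept cells, namely 33 and 23 in control libraries 1 and 2 and 49 and 55 in CCl4 libraries 1 and 2. The levels of these genes are given as a description and were not tested. No label says that libraries came from separate animals, so p-values hold for these libraries only, and the spread between them may be technical.

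Enteroendocrine cells are scattered hormone cells of the gut lining that arise from crypt stem cells under the transcription factors Neurog3 and Neurod1. They store hormones in dense granules built with chromogranins (Chga, Chgb) and release them when nutrients, microbial products or stretch act on receptors and ion channels. In the colon the main kinds are enterochromaffin cells, which make serotonin with tryptophan hydroxylase 1 (Tph1), and L cells, which make glucagon-like peptides from proglucagon (Gcg), peptide YY (Pyy) and insulin-like peptide 5 (Insl5).

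The sequences before the transcription starts of 3 of the 10 genes are shown because the chromogranin genes Chga and Chgb were found in 143 and 146 of the 160 members, while Gcg was found almost only in the peptide class described below. They come from RefSeq, build GRCm38.p6. Chga lies on the plus strand of chromosome 12 and its 250 bases before the start are chr12:102554691-102554940. Gcg lies on the minus strand of chromosome 2 and its 250 bases are chr2:62483654-62483903. Of Chgb, on the plus strand of chromosome 2, only a stretch of 30 bases at chr2:132781559-132781588 is shown, beside the matching stretch of Chga at chr12:102554886-102554915. Capitals mark matches of TGACGTNA, a form of the cyclic AMP response element, and of the E-box forms CAGATG and CAGCTG, on either strand.
Chga: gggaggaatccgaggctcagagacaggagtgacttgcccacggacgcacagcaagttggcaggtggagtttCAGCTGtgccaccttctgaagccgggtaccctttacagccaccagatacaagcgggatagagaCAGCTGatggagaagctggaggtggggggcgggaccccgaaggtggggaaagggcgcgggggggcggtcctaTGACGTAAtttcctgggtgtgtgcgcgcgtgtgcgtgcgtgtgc
Gcg: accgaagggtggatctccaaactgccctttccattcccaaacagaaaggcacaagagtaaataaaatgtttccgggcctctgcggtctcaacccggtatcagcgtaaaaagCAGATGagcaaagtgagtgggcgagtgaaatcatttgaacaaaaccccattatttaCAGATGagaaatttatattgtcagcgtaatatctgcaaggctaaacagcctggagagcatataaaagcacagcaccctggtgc
Chga stretch: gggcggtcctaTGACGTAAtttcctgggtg
Chgb stretch: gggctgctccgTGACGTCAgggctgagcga
The TGACGTNA match began 44 bases before the start of Chga and 72 before that of Chgb. It was in neither strand of the same window of the other 8 genes, and 2.52% of 32851 promoters held it. Of Pyy, Insl5 and Tph1, each with 2 listed starts, only the first listed start was scanned. In GENCODE M21 the Chgb gene begins at 132781278, before the window scanned, so the 72 bases hold only for the RefSeq start. CAGATG matched 139 and 83 bases before the Gcg start and 30 before the Cck start (14.4% of promoters), and CAGCTG 179 and 116 before the Chga start (13.0%). The 3 motifs were picked after several had been scanned, and a match of letters is not a measured binding site.

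The members carried the program of their label. The 14 enteroendocrine markers outside the rule, among them Cpe, Scg3, Scg5, Pcsk1n, Insm1, Pax6 and Rfx6, were all found and summed to 2439 CPM (counts scaled to 1e6 per sum of cells) in the members against 24.8 CPM in 10154 other epithelial cells (Epcam found, none of the 3 excluded genes). Epcam, the epithelial adhesion gene, was found in 132 of the 160. The median member held 6179 counts and 2185 genes, and a library's members together held from 207062 to 501451 counts. Rule-gene counts per member ran from 5 to 3090 with a median of 167.5. Just inside the limits lay 2 members with a sum of 5 and 43 with exactly 3 genes, and just outside lay 27 cells with 2 genes and 1 with 3 genes and a sum of 3 or 4. A further 20 cells met the counts but held Ptprc, Col1a1 or Pecam1. The barcode of 1 member occurred also in another library, and no kept cell shared its profile with a cell of another library.

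Markers of other cells were present in some members. In 1 member each of control 1, control 2 and CCl4 1, counts of the neuropeptide gene Vip (17, 477 and 1101) came with those of the neuronal genes Uchl1 (97, 84 and 219) and Elavl4 (14, 11 and 17). Epcam was 0, 1 and 0 in these 3, and Vip had no count in the other 157. The 8 goblet cell markers exceeded 1% of counts in 2, 3, 8 and 8 members of control 1, control 2, CCl4 1 and CCl4 2, and their sum was 2756, 6925, 9954 and 6184 CPM against 6802 CPM in other epithelial cells. Immune and plasma cell markers stood at 331 to 729 CPM in the members, with Ptprc, Cd3e and C1qa at 0. Doublet scores in the highest 6% of their library were held by 9, 2, 9 and 3 members, or 14.4% of all. Values without these barcodes are given where they differ, and their part in the results was not otherwise tested.

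Serotonin and peptide hormones were almost never found in the same cell. Members were classed by at least 2 counts of Tph1 and at least 2 counts of Gcg, Pyy and Insl5 in sum, which gave 75 Tph1-only, 40 peptide-only, 1 with both and 44 with neither. Tph1 had no count in any of the 40 peptide-only cells. Conversely, Tph1-only cells held 1 count of Gcg, 2 of Pyy and none of Insl5 or Cck in total, against 8778, 8042, 4774 and 1021 in peptide-only cells. The class with both was a single cell of control 2, with 9 counts of Tph1 and 42 of Gcg, 171 of Pyy and 121 of Insl5. These genes set the classes, so their split is a description. In other epithelial cells the share with any count was 0.305% for Tph1, 0.542% for Gcg, 0.719% for Pyy and 0.630% for Insl5, and in stromal cells (at least 2 counts of Col1a1) 0.167%, 0.500%, 0.500% and 0.317%, with medians of 6914 and 4645 counts per cell. Median counts per cell were 5697 in Tph1-only, 7223 in peptide-only and 3900 in neither.

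**Figure D1:**
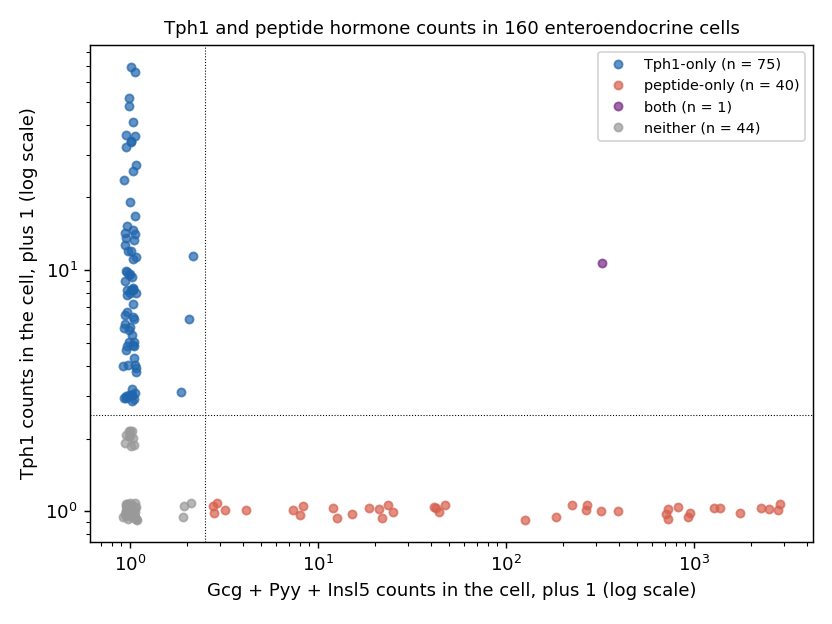
Each point is 1 enteroendocrine cell, placed by its Tph1 counts (y axis) and its summed Gcg, Pyy and Insl5 counts (x axis), each plus 1 on a log scale, with slight jitter; dotted lines mark the limit of 2 counts. The 75 Tph1-only cells line the y axis, the 40 peptide-only cells line the x axis, and 1 cell lies between.

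Chromogranin counts differed between the classes, but Chga and Chgb belong to the rule. A Tph1-only cell, with almost no Gcg, Pyy, Insl5 or Cck, reached 3 rule genes mainly through them, while a peptide-only cell could do so without them, so much of this contrast is set by the choice of cells. Chga was found in 75 of 75 Tph1-only cells at a median of 35 counts and in 24 of 40 peptide-only cells at a median of 1.5. Chgb was found in all 75 at a median of 197 counts and in 27 of 40 at a median of 2. In CPM of the summed cells, Chga stood at 5321 against 504 and Chgb at 29165 against 2055. The transcription factors Neurod1 and Fev differed less between the classes, at 518 against 372 CPM and 153 against 94.7 CPM. Secretagogin (Scgn), a calcium sensor of endocrine cells, lay the other way, at 24.0 CPM in Tph1-only and 584 in peptide-only cells. The Scgn value of 904 CPM in cells with neither hormone came mostly from a single Vip-bearing barcode with 250 of 335 counts.

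Peptide-only cells mostly held several hormone genes at once, but Gcg, Pyy, Insl5 and Cck belong to the rule. At a minimum of 2 counts each, 18 of 40 held Gcg, Pyy, Insl5 and Cck together, and a further 6 held Gcg, Pyy and Insl5 without Cck. Pyy alone was held by 4 cells, and no cell held Gcg alone or Insl5 alone. A cell with only Gcg, Pyy or Insl5 among the hormone genes could become a member only through further rule genes such as Chga and Chgb. Many peptide-only cells lacked these, so the choice of cells favours hormone genes found together. How much of the pattern it sets was not tested. Counts per cell spanned a wide range: in control 1 the 9 peptide-only cells held 0 to 2090 counts of Gcg with a median of 11, and in CCl4 2 the 17 cells held 0 to 1070 with a median of 13. A library's Gcg level therefore hung on few cells, since the richest cell supplied 51.0%, 99.4%, 29.1% and 39.3% of the Gcg counts of the peptide-only cells in control 1, control 2, CCl4 1 and CCl4 2. Of the summed Gcg, Pyy and Insl5 counts, Gcg made up 60.9% and 94.3% in the controls and 22.9% and 32.2% in the CCl4 libraries, where Pyy was the largest part (42.0% and 45.7%). The control 2 value rests on 2 cells.

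Genes outside the gate separated the classes further. The Tph1-only and peptide-only cells of a library were summed apart and compared with edgeR's quasi-likelihood test in control 1, CCl4 1 and CCl4 2, with the library as a block; control 2 had only 2 peptide-only cells, under the minimum of 5. Of 3536 genes tested, 24 passed an adjusted p of 0.05 (0.679%): 12 were higher in Tph1-only cells (0.339%) and 12 higher in peptide-only cells (0.339%). The text names 22 of them. Fold changes are log2 ratios of Tph1-only over peptide-only cells with their standard error (SE), and levels are CPM scaled by the library factors of edgeR, over n = 3 libraries.

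On the serotonin side stood genes of monoamine storage, tachykinin and sensing. Slc18a1, the transporter that loads serotonin into granules, had 193, 341 and 183 CPM in Tph1-only cells of control 1, CCl4 1 and CCl4 2 and 0, 0 and 4.72 CPM in peptide-only cells. Slc18a1 lies on chromosome 8 (69037711 to 69089235, minus strand, GENCODE M21 on GRCm38), where its interval overlaps Atp6v1b2. The classes did not overlap, with 144 counts against 1 (adjusted p = 0.00329). Tac1, which encodes substance P, had 757, 806 and 833 CPM against 113, 8.45 and 18.9 CPM. Its levels lay apart in every library (log2 ratio 4.46, SE 0.567, adjusted p = 0.00338). Lmx1a, a transcription factor of serotonin cells, had 351, 242 and 409 CPM against 0, 0 and 42.5 CPM (4.27, SE 0.646, adjusted p = 0.00762).

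Of 7 sensing genes tested, the 2 called higher in Tph1-only cells were a short-chain fatty acid receptor and a stretch channel. Another receptor for such acids, Ffar2, did not differ, at 246 CPM in Tph1-only and 277 in peptide-only cells (edgeR adjusted p = 0.97). Olfr78, an olfactory-type receptor for such acids on chromosome 7 (102738511 to 102759471, minus strand, in an interval shared with Olfr560), had 396, 355 and 355 CPM in Tph1-only cells and no count in peptide-only cells. With 219 counts against 0 it was at least 52.3-fold higher, taking 3 counts over the peptide-only cells as the floor (adjusted p = 0.00213). The mechanically gated channel gene Piezo2 had 224, 336 and 360 CPM against 0, 0 and 14.2 CPM, a count ratio of 43.4 with a 95% counting interval of 14.6 to 213 (adjusted p = 0.00322). Other genes higher in Tph1-only cells were Rab3c, a GTPase of secretory vesicles (427 ± 171 against 11.6 ± 12.8 CPM, SD, n = 3), and Atf6, a sensor of endoplasmic reticulum stress (898 ± 57.1 against 78.2 ± 91.7 CPM). Fam19a1, Slc38a11, Pex5l and Tanc2 were also called, with log2 ratios of 5.24, 4.88, 4.25 and 3.17.

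On the peptide side stood transcription factors, lipid sensing and the hormone secretin. Isl1, a LIM homeodomain factor of endocrine cells on chromosome 13 (116298281 to 116309689, minus strand), had 239, 422 and 194 CPM in peptide-only cells and 0, 0 and 5.38 CPM in Tph1-only cells (110 counts against 1, adjusted p = 0.00213). Etv1, an ETS factor, had 580, 338 and 245 CPM against 71.1, 0 and 10.8 CPM (log2 ratio -4.12, SE 0.615, adjusted p = 0.00762). Both factors lay apart in every library. Sct, which encodes secretin, had 781, 642 and 420 CPM against 50.8, 175 and 21.5 CPM (-3.13, SE 0.472, adjusted p = 0.00762).

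Gpr119 and Avpr1b had no count in the Tph1-only cells of these libraries. Gpr119, on chromosome X and a receptor for lipid amides, had 139, 135 and 75.5 CPM in peptide-only cells and was at least 20.02-fold higher there (43 counts against 0, adjusted p = 0.0247). Avpr1b, a vasopressin receptor, was at least 21.9-fold higher (47 against 0, adjusted p = 0.0142). The fatty acid carrier gene Fabp5 (511 ± 286 against 23.2 ± 21.6 CPM) and Gucy2c, the receptor of guanylin (688 ± 321 against 177 ± 86.9 CPM), were also higher in peptide-only cells. So were Cldn14, Map2, Tm4sf20 and Adh1, with log2 ratios of -3.84, -3.74, -2.43 and -1.41.

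**Figure D2:**
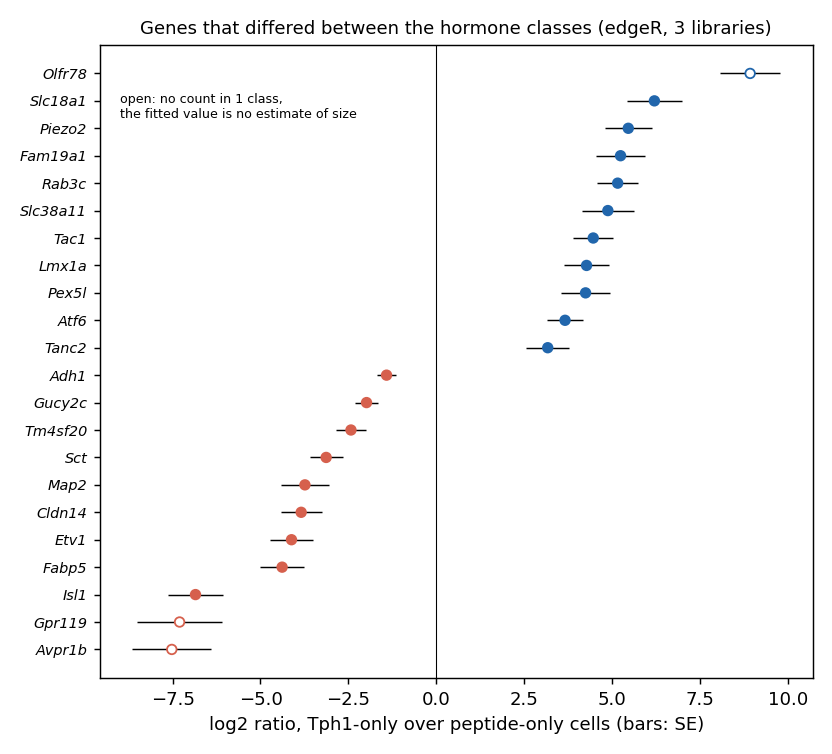
Points are log2 ratios of Tph1-only over peptide-only cells with SE for the 22 named genes past an adjusted p of 0.05 in 3 libraries; open points had no count in 1 class, so their place is no measure of size. Olfr78, Slc18a1 and Piezo2 lie farthest to the serotonin side, and Avpr1b, Gpr119 and Isl1 farthest to the peptide side.

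Of 8 monoamine genes tested, 2 passed toward the serotonin class (Slc18a1 and Lmx1a) and 0 the other way, with a list median of 1.48 against 0.01 over all tested genes. At an unadjusted p under 0.05 the monoamine count was 5 and 0, where 7.72% of all tested genes had such a p. Ddc, which makes serotonin from its precursor, missed the threshold at 2145 against 782 CPM (adjusted p = 0.0579). Of 18 granule and processing genes only Rab3c passed, and the list median was 0.31. Of 17 transcription factors Lmx1a passed on one side and Isl1 and Etv1 on the other, with 4 and 5 at an unadjusted p under 0.05. Pax6, an endocrine factor, stood at 12.4 against 149 CPM (adjusted p = 0.125). Of 7 sensing genes, Olfr78 and Piezo2 passed on the serotonin side and Gpr119 and Avpr1b on the peptide side. No gene of the excitability, interferon, heat shock, immediate early, clock or endoplasmic reticulum stress lists passed. Abcc8, a subunit of the ATP-sensitive potassium channel, stood at 1.69 against 88.2 CPM (adjusted p = 0.058).

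Control 2, which was not in that fit, had the same order for most of these genes. All 11 named genes of the serotonin side were higher in its 12 Tph1-only cells than in its 2 peptide-only cells, with Tac1 and Lmx1a found in 12 of 12 and Olfr78 in 8. Of the 12 on the peptide side, 10 were higher in the 2 peptide-only cells; Cldn14 lay the other way on 2 counts and Gpr119 had none. Of the peptide-only cells, 5 of 9 in control 1 and 4 of 12 in CCl4 1 had doublet scores in the highest 6%, against 4 of 75 Tph1-only cells. Without such cells 28 genes were called in the 2 libraries left, 17 of them among the 24, and Fabp5, Avpr1b, Tm4sf20, Gpr119, Map2 and Adh1 missed the threshold at edgeR adjusted p from 0.0546 (Fabp5) to 0.363 (Avpr1b).

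The 44 members with neither hormone class held named genes of either side. Of these, 13 held at least 2 of the serotonin-side genes only, 5 at least 2 of the peptide-side genes only, 22 held 2 or more of both sides, and 4 fewer than 2 of either. Several of these genes are common elsewhere. Adh1, Gucy2c, Tm4sf20 and Atf6 were found in 56.4%, 41.6%, 37.1% and 20.4% of other epithelial cells. Of Tph1-only cells, 77.3% held Adh1 and 56% held Gucy2c. The same count was not made in the other classes, so genes of both sides do not show a mixed identity. Chga and Chgb were found in 43 of 44, at medians of 10 and 26.5 counts. Neurog3, the factor that starts endocrine fate in crypt progenitors, was found in 13 of 44 cells with neither (29.5%), 9 of 75 Tph1-only cells (12%) and 0 of 40 peptide-only cells, where no count allows a share of up to 7.50% of cells with a count, which does not limit the share that express the gene. Neurog3 was found in 0 of 33 and 4 of 23 members of the 2 control libraries and in 10 of 49 and 8 of 55 of the 2 CCl4 libraries, so the groups overlapped. The 3 Vip-bearing barcodes were among these 44.

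Against other epithelial cells, the members were set apart by granule, transcription factor and ion channel genes. The fit over 4 libraries, with the library as a block and the rule genes and Epcam untested, called 1547 of 14271 genes higher (10.8%) and 2159 lower (15.1%). Because genes that marked the members were used to choose them, these counts describe what travels with the rule genes. In this fit edgeR took the spread almost wholly from all genes together. Its p-values, however small, therefore do not measure a gene's own spread between libraries. Of 27 granule and processing genes 25 were higher and 0 lower, with a median log2 ratio of 4.49 against -0.15 over all genes; examples were Cpe, the prohormone carboxypeptidase (6.48), and Scg3, a granule protein (6.66). Of 26 transcription factors 23 were higher and 0 lower (median 5.66), including Pax6 (7.53), Insm1 (7.01) and Rfx6 (6.57).

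Scn3a, a voltage-gated sodium channel and the gene of smallest p, had 252, 417, 308 and 283 CPM in the members of control 1, control 2, CCl4 1 and CCl4 2 and 1.20, 1.22, 1.58 and 1.73 CPM in other epithelial cells (7.72, SE 0.259, adjusted p = 1.11e-189). The levels lay apart in all 4 libraries. Of 17 excitability genes 12 were higher and 0 lower (median 3.07). Among 16 sensing genes 7 were higher and 3 lower, with the somatostatin receptor Sstr5 (8.67), Olfr78 (8.23) and the short-chain fatty acid receptor Ffar2 (1.81) above and Gpr35 (-2.59) and Tlr4 (-1.87) below. Sstr5 had 0.0750, 0, 0 and 0 CPM in other epithelial cells of the libraries in that order. Gpr35 had 2.77, 0, 0 and 3.63 CPM in the members. These values lie near the floor, so the ratios of Sstr5 and Gpr35 are no measure of size.

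Antigen presentation genes were lower in the members, and carrier genes were split. Of 25 genes of MHC class I and II, the immunoproteasome and interferon response 0 were higher and 16 lower (median -0.93), among them B2m, the light chain of MHC class I (-1.95). The 16 include the class II genes H2-Aa, H2-Ab1 and H2-Eb1 (-4.08) and their invariant chain gene Cd74 (-4.67), which immune cells express. Of 9 bile acid and lipid carrier genes 3 were higher, namely Ttr, a thyroxine carrier (4.12), Fabp5 (3.56) and the peptidase gene Dpp4 (2.15). The 4 lower ones were Slc51b, which exports bile acids (-4.69), Fabp2 (-2.85), the bile acid receptor gene Nr1h4 (-2.16) and Slc10a2, which had no count in the members and 4.52 CPM in other epithelial cells, so that no fold is given. Slc51b had 5.54 CPM in the members of control 1 and 0 in those of control 2, CCl4 1 and CCl4 2, so its ratio is no measure of size. Plasma cell genes were among the lower ones, with Jchain at 46.6 CPM in the members and 6884 CPM in other epithelial cells, where immune and plasma markers summed to 85310 and 72208 CPM in the controls and 18271 and 13627 CPM with CCl4. Without comparator barcodes of over 5% immunoglobulin counts, Jchain no longer passed (log2 ratio -0.33, adjusted p = 0.393), while the granule and transcription factor counts stood at 25 of 27 and 23 of 26, and the interferon list at 14 lower of 24.

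Between the groups, the share of enteroendocrine cells depended on what it was taken over. Of kept cells they made up 0.383% and 0.262% in controls and 0.444% and 0.528% with CCl4. The mean was 0.323% ± 0.0853 against 0.486% ± 0.0597 (SD, n = 2), without overlap; the exact two-sided permutation test gave p = 0.333, the smallest that 2 against 2 libraries allow. Exact 95% binomial intervals, which cover counting error only, ran from 0.264% to 0.537% in control 1 and from 0.328% to 0.586% in CCl4 1. Over epithelial cells alone the shares were 1.90% and 1.38% in controls and 1.37% and 1.65% with CCl4, which overlapped and turned the direction of the means (1.64% ± 0.364 against 1.51% ± 0.197, exact permutation p = 0.667). Other epithelial cells made up 19.8% and 18.7% of kept cells in controls and 31.9% and 31.5% with CCl4. After each cell was thinned to 1000 counts, the share of kept cells was 0.305% and 0.199% against 0.297% and 0.386%, which overlapped. Fewer cells of other types and more enteroendocrine cells cannot be told apart from such shares.

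The serotonin class made up less of the enteroendocrine cells in the CCl4 libraries. Tph1-only cells were 20 of 33 (60.6%) and 12 of 23 (52.2%) in controls and 22 of 49 (44.9%) and 21 of 55 (38.2%) with CCl4. The groups did not overlap (56.4% ± 5.96 against 41.5% ± 4.75, SD, n = 2, exact permutation p = 0.333), but the exact intervals of the single libraries did, from 42.1% to 77.1% in control 1 and from 25.4% to 52.3% in CCl4 2. After thinning, the shares were 39.9% and 34.7% against 31.9% and 21.5%. Peptide-only cells were 27.3% and 8.70% against 24.5% and 30.9%, and cells with neither 12.1% and 34.8% against 30.6% and 30.9%. Both of these overlapped, with control 1 and control 2 on either side of the CCl4 values for the latter.

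**Figure D3:**
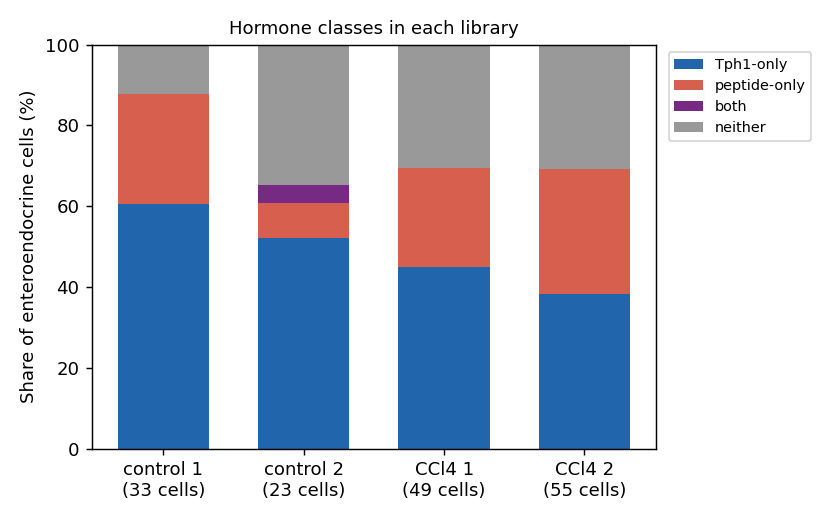
Bars give the share (%) of each hormone class among the enteroendocrine cells of each library, with the number of cells below. The Tph1-only share is 60.6% and 52.2% in the controls and 44.9% and 38.2% in the CCl4 libraries, while the 2 controls differ most in the peptide-only and neither shares.

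Levels of the shared endocrine genes were lower in both CCl4 libraries. In CPM of the summed members, Chgb had 19950 and 21689 with control and 13954 and 13567 with CCl4, and Chga had 3474 and 3999 against 2691 and 2690. Neurod1 had 627 and 522 against 398 and 407, and Fev, an ETS factor of serotonin cells, 145 and 198 against 100 and 112. None of these overlapped; of 6554 genes, 17.7% had both CCl4 libraries below both controls and 18.6% above. In bulk sums such as these, fewer cells of a class and less RNA per cell cannot be told apart.

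Within the Tph1-only cells alone, Chgb and Fev still lay lower with CCl4. Chgb stood at 30460 and 45043 CPM against 26590 and 23641, and Fev at 191 and 215 against 116 and 127, both without overlap. The share of all genes that lay apart in these cells is not given here, so this is a description. Across the genes outside the rule, edgeR called 0 of 3899 between the groups in these cells (adjusted p under 0.05). Chga, at 5013 and 7565 against 4815 and 5185, and Tph1 itself, at 1141 and 1670 against 1610 and 1238, overlapped. As the mean of single-cell CPM over all members, where each cell weighs alike, Fev (151 and 184 against 166 and 146) and Neurod1 (581 and 513 against 611 and 450) overlapped as well. Chgb then stood at 25860 and 28718 against 23541 and 20090.

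Peptide hormone levels differed widely between the 2 controls. Gcg had 13814 and 3328 CPM with control and 2629 and 5430 with CCl4, and Pyy 5869 and 999.7 against 4811 and 7724. Both overlapped. Insl5, at 3009 and 599 against 4022 and 3739, did not overlap over all members, but within peptide-only cells it did (11239 and 83.6 against 16549 and 8619). Cck, the cholecystokinin gene, overlapped at 1314 and 580 against 426 and 632 CPM. Without the cells of highest doublet score, control 1 had 141 CPM of Gcg and 53.0 of Pyy, and the log2 ratio of the group means turned from -1.09 to 0.78 for Gcg and moved from 0.87 to 3.12 for Pyy.

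**Figure D4:**
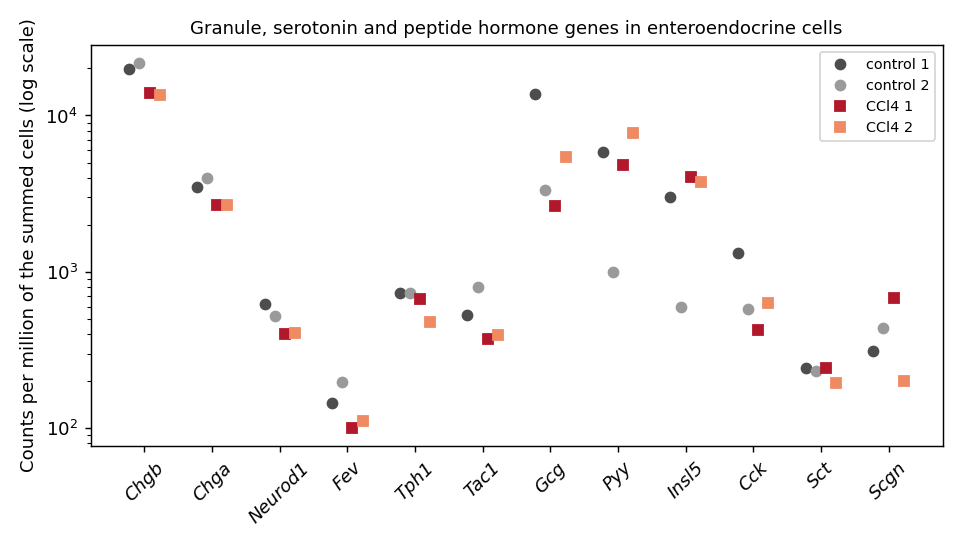
Points give CPM of the summed enteroendocrine cells (log scale) for 12 genes in each of the 4 libraries, circles for control and squares for CCl4. Chgb, Chga, Neurod1 and Fev lie lower in both CCl4 libraries, while the peptide hormone genes Gcg, Pyy and Cck overlap, with control 1 and control 2 far apart.

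Hormone genes outside the rule were compared in the same way. Guca2a, the guanylin gene, which is not particular to endocrine cells, had 552 and 275 scaled CPM in the controls against 402 and 1125 with CCl4, and overlapped (edgeR adjusted p = 0.91). Tac1 had 532 and 802 CPM in the controls against 372 and 397 with CCl4, without overlap (edgeR log2 ratio -0.69, SE 0.261, adjusted p = 0.89), and within Tph1-only cells it overlapped, at 790 and 1539 against 824 and 820. Sct differed by less than its spread, at 243 and 232 against 243 and 195 CPM (adjusted p = 0.997). Nts, the neurotensin gene, was found in 1 peptide-only cell of each control library (79 and 7 counts) and in no CCl4 cell. Ghrl, the ghrelin gene, had 140 counts in 7 cells of CCl4 1, 14 in 1 cell of CCl4 2 and 1 in control 1, with 81 of the 155 in a single cell. Sst, the somatostatin gene, was found in 3 members, all with CCl4. No Gip, Gast, Grp or Penk was counted in any member.

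Across all genes no difference between the CCl4 and control libraries passed the edgeR test in the enteroendocrine cells. Of 6554 genes 0 passed an adjusted p of 0.05 (0%), and 354 had an unadjusted p under 0.05 (5.40%). DESeq2 called 3 of the same 6554 (0.0458%), namely Klk1, Ccl6 and Nupr1. Leaving out 1 library gave 126 calls without control 1, 64 without control 2, 42 without CCl4 1 and 32 without CCl4 2, with the lone library left in a group assumed to vary like the other group.

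The genes named from this comparison were chosen after their values were seen. Klk1, tissue kallikrein, whose family of near-identical copies can share reads, had 489 and 619 scaled CPM in the controls and 1368 and 1535 with CCl4 (log2 ratio 1.39, SE 0.222, adjusted p = 0.516). Ccl6, a chemokine gene, had 69.8 and 45.8 against 243 and 400 (2.44, SE 0.39, adjusted p = 0.516), and a single cell held 133 of its 341 counts. Nupr1, a stress response factor, had 376 and 138 against 849 and 1024 (1.85, SE 0.4, adjusted p = 0.793). None of the 3 overlapped between groups, but DESeq2 had called them in these same libraries, so this is no further evidence. Of all 6554 genes, 18.6% had both CCl4 libraries above both controls. Without the members of over 1% goblet markers the log2 ratio was 1.06 for Klk1 and turned to -0.90 for Nupr1; the part of the goblet markers in these values was not tested further.

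**Figure D5:**
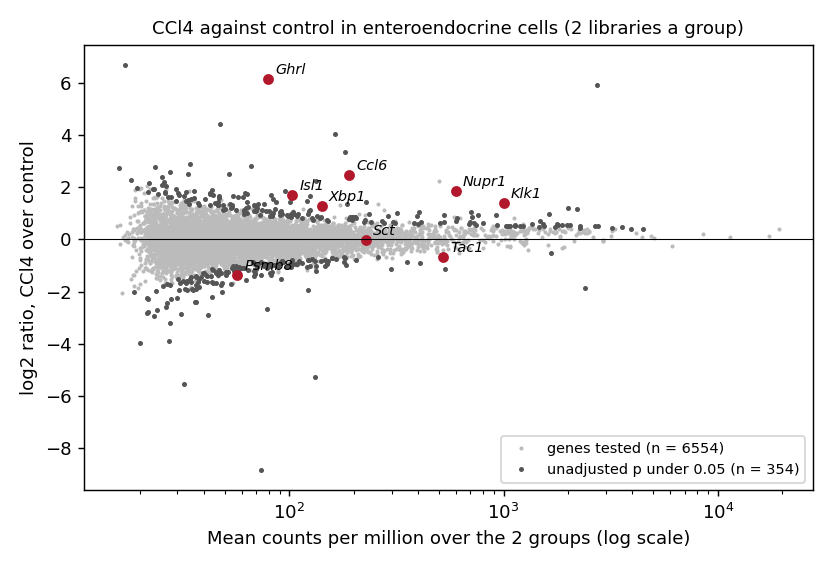
Each point is 1 of 6554 genes, with its mean CPM (x axis, log scale) and its log2 ratio of CCl4 over control in enteroendocrine cells (y axis); dark points have an unadjusted p under 0.05 and red points are genes named in the text. No gene passed an adjusted p of 0.05 in edgeR, and Klk1, Nupr1 and Ccl6 are those that DESeq2 called.

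Among the gene lists, no member passed in either direction. The median log2 ratio was 0.49 for 16 endoplasmic reticulum stress genes, against 0.00 over all genes, with Xbp1, which drives secretory capacity, at 79.8 and 87.1 against 223 and 178 scaled CPM (1.26, SE 0.326, adjusted p = 0.793). Ddit3, a stress-induced factor, had 69.8 and 36.7 against 149 and 149 (adjusted p = 0.89). The median was -0.35 for 26 granule genes, -0.37 for 9 monoamine genes, including Ddc at 1965 against 1353 CPM on average, and -0.19 for 23 transcription factors. Isl1 lay the other way from its list, at 63.2 and 32.1 against 129 and 188 (1.69, SE 0.426, adjusted p = 0.793). For 11 interferon and immunoproteasome genes the median was -0.05, with Psmb8 at 110 and 55.0 against 34.7 and 29.3 (-1.38, SE 0.482, adjusted p = 0.89).

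Whether the CCl4 change of the enteroendocrine cells differed from that of other epithelial cells was tested as an interaction in edgeR. Here too the spread came almost wholly from all genes together, so p does not measure a gene's own spread between libraries. Of 14271 genes 45 passed (0.315%), 36 with a higher ratio in the enteroendocrine cells (0.252%) and 9 with a lower one (0.0631%), and 761 had an unadjusted p under 0.05 (5.33%). DESeq2 called 4; in edgeR 0 passed when either control library was left out, where 1013 (control 1) and 746 (control 2) had an unadjusted p under 0.05. Car8, a carbonic anhydrase-related gene, had 147 and 176 CPM in the control members, 33.9 and 52.6 with CCl4, and 25.9 to 32.6 in other epithelial cells (interaction -2.10, SE 0.465, adjusted p = 0.00428; DESeq2 adjusted p = 0.0866). It lay apart from the controls in both CCl4 libraries, but 40 of its 46 counts in control 2 and 22 of 53 in control 1 lay in a single cell each, and it did not pass with any 1 library left out (edgeR adjusted p from 0.203 to 0.882. Others rested on few cells as well, such as Mptx1, a mucosal pentraxin, of whose 5211 counts a single cell of CCl4 2 held 4355.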

How the data were processed

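Gene by cell matrices of 4 libraries held unnormalised counts, which the authors deposited per library. Per the file headers they were made with PISA v0.12b-15-gb8ca969, and the submitters' processing notes name the build GRCm38; any aligner and filters before deposit are not given in the sources used here. All 46509 deposited barcodes were filtered as stated above. Member counts were summed per library, or per library and class, and tested with edgeR 4.0.16 in R 4.3.3 (TMM scaling, filterByExpr, quasi-likelihood test, Benjamini-Hochberg adjustment over all genes tested); all adjusted p-values come from it unless DESeq2 1.42.0 is named. The 10 rule genes and the 3 excluded genes stayed in library sizes but were not tested. Doublet scores came from Scrublet (scanpy 1.11.5). Thinning drew 1000 counts per cell 20 times. The scripts were tested on simulated data. Of 29897 gene symbols, 98.3% were in GENCODE M21. Genes named were those past the threshold with at least 50 CPM in a group, up to 12 a direction; others were picked after their values were seen, and some results are not reported here. The members and gene lists were chosen with earlier results of these data known. Intervals are exact Clopper-Pearson ones and cover counting error only.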

Additional observations from a re-analysis of the deposited data

Results flagged for a closer look

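The CCl4 against control ratio differed between the enteroendocrine and other epithelial cells for 45 genes by the interaction test in edgeR (adjusted p under 0.05). The 19 that the naming rule kept are given here. They had a mean of at least 50 CPM in the control or the CCl4 libraries of either kind of cell. The difference, as log2 in enteroendocrine minus other epithelial cells, was above 0 for Reg3b (12.51), Slpi (11.24), Rgs5 (10.82), Pla2g4a (10.76), Mptx1 (4.63), Wfdc18 (3.98), Dpt (3.26), Fam46c (3.25), Rel (2.92), Car1 (2.92), Pawr (2.72) and Xbp1 (2.59). It was below 0 for Nnat (-4.96), Scg2 (-4.44), Reg4 (-3.90), Rgs4 (-3.06), Uchl1 (-2.77), Car8 (-2.10) and Ttr (-1.31). Immune and plasma markers in the other epithelial cells stood at 85310 and 72208 CPM in the controls and 18271 and 13627 CPM with CCl4, and Xbp1 had 542 and 429 against 215 and 189 CPM there, Fam46c 155 and 125 against 47.8 and 33.6, and Slpi 249 and 145 against 61.4 and 36.1. Without other epithelial barcodes of over 5% immunoglobulin counts, the edgeR difference no longer passed for Xbp1 (1.23, adjusted p = 0.357), Fam46c (adjusted p = 0.937), Slpi (adjusted p = 0.694), Uchl1, Rel, Ttr, Rgs5, Rgs4, Pla2g4a and Pawr (adjusted p from 0.0559 to 0.149). Reg3b, an antimicrobial lectin gene, Slpi, Pla2g4a and Rgs5 had no count in any control member, so their fitted values are no measure of size. Of the Reg4 counts of control 2, 965 of 978 lay in a single cell, and of the Mptx1 counts of CCl4 2, 4355 of 4465. A single cell of control 2 held 106 of the 120 Nnat counts. For Scg2, single cells held 41 of 56, 54 of 56, 86 of 90 and 42 of 47 counts in control 1, control 2, CCl4 1 and CCl4 2. In that order, Scg2 had 155, 214, 160 and 85.3 CPM in the members and 0, 0.216, 0.155 and 5.36 in other epithelial cells. The latter lay near the floor, so the Scg2 value is no measure of size. All Uchl1 counts of the controls (97 and 84) and 219 of the 254 in CCl4 1 lay in the 3 Vip-bearing barcodes, while CCl4 2, which had no such barcode, held 3; their part in the difference was not tested further.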

How the results depend on the processing

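The difference in enteroendocrine share, 0.163 percentage points of kept cells, turned to -0.127 over epithelial cells. Among class shares, the both class turned to 0.776 points with at least 1 count per class, and the neither class ranged from -4.02 to 18.6 points with single libraries left out. For CCl4 against control, DESeq2 gave 3 calls, no low-count filter 19, and leaving out a library 32 to 126. Sct, at -0.02, turned to 0.037 without the filter, 0.72 without the highest doublet scores, 0.20 without goblet-rich barcodes and 0.80 in Tph1-only cells, and ranged from -0.14 to 0.12 with a library left out; Nupr1 turned to -0.90 without goblet-rich barcodes. For Tph1-only against peptide-only cells (24 calls), no filter gave 81, stricter cells 53, classes by the larger count 46, and leaving out a library 48 to 78. The interaction (45 calls) gave 4 with DESeq2, 19 without immunoglobulin-rich comparator barcodes and 0 to 41 with a library left out, where Uchl1 ranged from -8.01 to 0.15. The cause of these changes was not tested. Counts against other epithelial cells ran from 2690 to 4453 and stayed within 1.5 times the 3706. The settings on goblet-rich and immunoglobulin-rich barcodes, Tph1-only cells and the largest single cells were chosen after seeing the data.

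No label says what the library number marks. For the libraries numbered 1, the correlation of their deviations from the group means was -0.0678 over 6554 genes. A value near 0 in sums of so few cells cannot show that they share nothing. Doublet scores in the highest 6% were held by 27.3% and 18.4% of the members of control 1 and CCl4 1. In control 2 and CCl4 2 they were held by 8.70% and 5.45%. With a replicate block, CCl4 against control gave 11 calls in place of 0; without the block, Tph1-only against peptide-only cells gave 43. The depth limits all comparisons, since a library held at most 55 members.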
